A study of Mus musculus with 17 samples.

Results

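The comparison described here set arteriolar smooth muscle cells (aSMCs) that had been sorted as tdTomato-positive cells from SMACreER:Ai14 mice against homogenate of mouse cerebral cortex. It comprised 8 of the 17 bulk RNA-seq samples of the series, which were chosen by their labels alone: the 2 aSMC samples of the genotype SMACreER:Ai14 (replicates 7 and 8, tissue given as cerebral arteriole) and all 6 cortex samples, which the labels give as WT (replicates 1 to 6). SMACreER carries a tamoxifen-inducible Cre recombinase under the control of the smooth muscle α-actin promoter, and Ai14 is a reporter allele at Rosa26 from which a CAG promoter drives the red protein tdTomato once Cre has acted. The cells are therefore those in which this driver was active, and cell types other than aSMCs that use the α-actin promoter would carry the reporter too. For in vivo work in general, bulk RNA-seq included, the methods state that adults took tamoxifen by gavage at least a month earlier. They describe a sort for RNA-seq, with removal of CD31- and CD45-positive cells, for adult SMACreER:Ai47 mice, and a gate for tdTomato in SMACreER:Ai14 mice for neonatal cells that went into culture. Which of these applied to the 2 aSMC samples, their sex and exact age, and whether the 8 samples came from separate animals are not stated. The p-values thus measure the spread between samples, and that spread may be technical. The accounts of the cortex samples differ: the labels call them homogenate of WT mice, whereas the text of the study describes cortex that was dissociated along with the SMACreER:Ai47 cells and set aside ahead of their sort. These sources do not settle whether the cortex was dissociated. The groups differ in cell sorting as well as in tissue and genotype, which cannot be told apart. Other samples of the series entered further fits. The 3 astrocyte samples, sorted from hGFAPCreER:Ai14 mice, were joined to these 8 in a fit that also compared them with the aSMCs directly. A fit of all 17 samples also held the aSMCs of SMACreER:Ai47 mice.

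Smooth muscle cells of cerebral arterioles wrap the vessel in rings and set its diameter. Calcium entry activates calmodulin and myosin light chain kinase, phosphorylated myosin pulls on smooth muscle actin, and the kinase ROCK sustains the tone by restraining the myosin phosphatase. Nitric oxide relaxes the same cells through soluble guanylate cyclase and cGMP. Their contractile genes are driven by serum response factor with its coactivator myocardin, which bind short A/T-rich elements called CArG boxes, and their arterial identity depends on Notch3. Cortex homogenate, by contrast, is mostly RNA of neurons and glia, with a small share from vessels.

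The label was first checked against the smooth muscle markers. Acta2 (chr19:34241090-34255590, GRCm38), which encodes smooth muscle α-actin, was at 2757 and 3122 CPM in the aSMC libraries and 10.2 to 71.4 CPM (median 45.5) in cortex, where CPM is the usual per-library scaling of the counts, here on the library size after TMM. This was a log2 fold change of 6.11 (SE 0.53, adjusted p = 2.72e-06) in edgeR's quasi-likelihood fit, whose p-values were adjusted over all tested genes by the Benjamini-Hochberg method. Myh11 (chr16:14194535-14291372), the myosin heavy chain of smooth muscle, was at 4429.5 and 4789 CPM in the aSMC libraries and 6.22 to 108 CPM (median 52.4) in cortex, with a log2 fold change of 6.47 (SE 0.62, adjusted p = 5.0e-06). Rgs5 (chr1:169655501-169695813), a regulator of G-protein signaling of mural cells, was at 10708 and 7546 CPM in the aSMC libraries and 266 to 942 CPM (median 439) in cortex, with a log2 fold change of 4.21 (SE 0.41, adjusted p = 5.12e-06). Both aSMC libraries lay far above all 6 cortex libraries for each of the 3 markers, so none of the 3 goes against the label. The sort relied on the α-actin promoter, so Acta2 is not an independent check. A comparison with cortex does not separate aSMCs from other mural cells. Rgs5 is shared by aSMCs and pericytes, and it was higher in aSMC replicate 7 than in replicate 8.

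**Figure D1:**
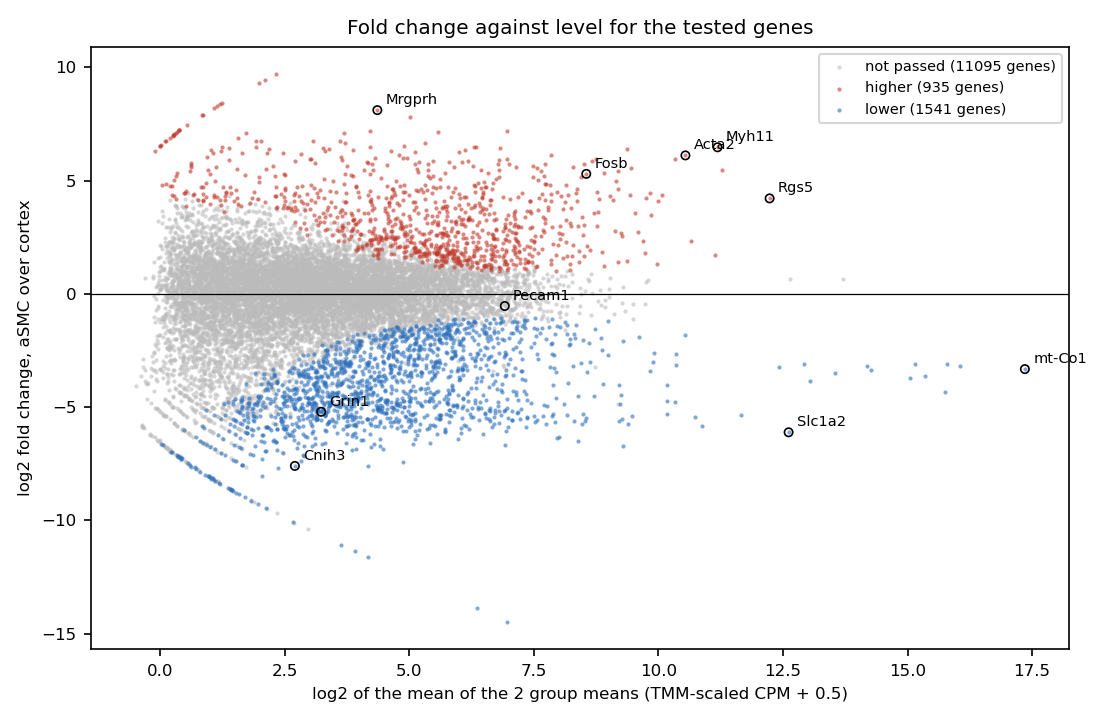
Each point is 1 of the 13571 tested genes, with the log2 fold change of aSMCs over cortex on the vertical axis and, on the horizontal axis, log2 of the mean of both group means (TMM-scaled CPM + 0.5). Red marks the 935 genes that were higher and blue the 1541 that were lower at an adjusted p under 0.05, and Acta2, Myh11 and Rgs5 lie among the highest levels on the red side.

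The aSMC libraries held 14870507 and 14979228 counts, and the cortex libraries 5397905 to 7288036. Genes with at least 1 count numbered 17021 and 16882 in aSMCs and 12164 to 15941 in cortex. Genes of the mitochondrial DNA took 16.8% and 17.6% of the aSMC counts. In cortex they took 38.8% and 35.7% in replicates 1 and 2 and 59% to 72.9% in replicates 3 to 6, so that the cortex libraries stood in 2 sets and fewer of their counts came from nuclear genes. The TMM factors were 2.02 and 1.93 for aSMCs and 0.436 to 1.56 for cortex. The scaling therefore matters to every value given here: with library totals in its place the median log2 fold change of all tested genes rose by 1.15.

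Of 13571 tested genes, 935 (6.89%) were higher and 1541 (11.4%) lower in aSMCs than in cortex at an adjusted p under 0.05, so that 37.8% of the calls were higher. With library totals alone the counts were 2177 higher and 625 lower, and 77.7% of the calls were higher, so the balance of the directions depended on the scaling. With cortex replicates 1 and 2 left out, 878 were higher and 1257 lower, a check that was chosen after the data were seen. Without aSMC replicate 7 the counts were 471 and 688, and without replicate 8 they were 444 and 653; the lone aSMC library is then assumed to vary like cortex. In what follows, a value in parentheses after a gene that did not pass without a library, or on library totals, is its log2 fold change in that fit. The counts of each gene list below are to be read against the 6.89% of all tested genes that were higher and the 11.4% that were lower.

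The 12 largest increases among genes with a mean of at least 10 CPM in aSMCs included genes of muscle, transcription factors and receptors. Mrgprh, an orphan G-protein-coupled receptor, was at 26.8 and 53 CPM in the aSMC libraries and 0 to 0.871 CPM (median 0) in cortex, where 4 counts in all fell on it in the 6 cortex libraries, and it gave a log2 fold change of 8.11 (SE 1.05, adjusted p = 5.78e-05). Nkx6-1, a homeobox transcription factor best known from pancreatic islets and spinal cord, was at 66.8 and 60.2 against 0 to 1.24 CPM (median 0.0863). Cebpb, a leucine zipper transcription factor of inflammatory and acute-phase responses, was at 30.9 and 41.2 against 0 to 0.432 CPM (median 0.28). Des, which encodes the muscle intermediate filament desmin, was at 225 and 269 against 0.518 to 2.61 CPM (median 1.84), and Mustn1, a small nuclear protein of muscle and skeleton, at 98.2 and 89.3 against 0 to 1.58 CPM (median 0.549). Asb2, part of a ubiquitin ligase that targets filamins in muscle, was at 25.8 and 24.1 against 0 to 0.825 CPM (median 0.185). The other 6 were the metalloproteinases Adamts8 (24.3 and 24.8 CPM in aSMCs, log2 fold change 7.11) and Pappa2 (48 and 22.9 CPM, 6.5), the transcription factors Pou2f3 (22.1 and 24.5 CPM, 6.76) and Tbx15 (56.5 and 58.9 CPM, 6.52), the epoxide hydrolase Ephx3 (18.1 and 13.2 CPM, 6.75) and the orphan receptor Gpr20 (78.8 and 77.8 CPM, 6.66).

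The 12 largest decreases were taken among genes with at least 10 CPM in cortex. Cnih3, an auxiliary protein of AMPA receptors, was at 0.0668 and 0.0346 CPM in the aSMC libraries and 6.87 to 25.3 CPM (median 9.28) in cortex. As only 3 counts fell on it in aSMCs, its cortex level was 209.9 times that in aSMCs with an exact (Clopper-Pearson) 95% interval of 71.2 to 1023, which covers counting error only. Grin2c, an NMDA receptor subunit, was at 0.0334 and 0.138 against 0.871 to 26 CPM (median 13.1), and Kcnj6, a G-protein-gated potassium channel of neurons, at 0.167 and 0.0346 against 4.32 to 33 CPM (median 9.28). Panx2, a pannexin channel of the nervous system, was at 0 and 0.138 against 4.67 to 22.6 CPM (median 12.7), and Tspoap1, a scaffold of presynaptic active zones, at 0.267 and 0.381 against 19.8 to 57.5 CPM (median 30.9). Fa2h, which makes the hydroxylated fatty acids of myelin, was at 0.1 and 0.0346 against 1.65 to 18.9 CPM (median 9.48), and Elovl2, which elongates polyunsaturated fatty acids, at 0.267 and 0.173 against 2.32 to 62.8 CPM (median 27.2). The remaining 5 were Gpr165 (-7.58), the olfactory receptor Olfr1039 (-7.42), Scrg1 (-6.87), Fam78b (-6.87) and Rundc3a (-6.73). The rule that chose these 24 genes required groups that do not overlap. Cortex levels of the 12 that fell were spread widely, from 2.02 to 167 CPM for Olfr1039. Gpr165 (-7.25 and -7.85) and Olfr1039 (-7.26 and -7.47) did not pass without aSMC replicate 7 or without aSMC replicate 8. Grin2c (-6.4) did not pass without aSMC replicate 7. Fa2h (-6.43) and Kcnj6 (-6.05) did not pass without aSMC replicate 8.

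**Figure D2:**
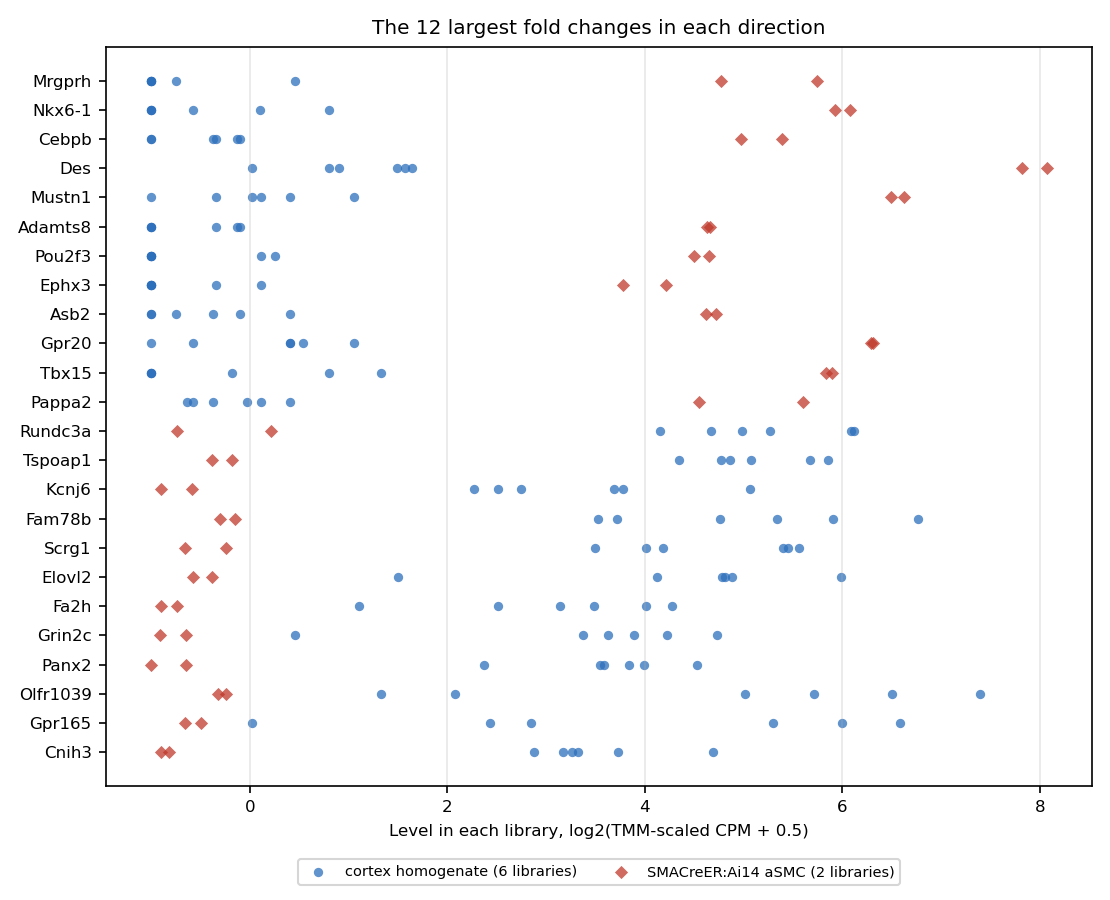
Level of the 12 genes with the largest increase and the 12 with the largest decrease in every library, as log2(TMM-scaled CPM + 0.5). Red diamonds are the 2 aSMC libraries and blue circles the 6 cortex libraries; the genes were chosen so that the diamonds lie outside the range of the circles.

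The contractile apparatus of smooth muscle rose as a whole. All 18 of 18 listed contractile genes passed the test upward, against 6.89% of all tested genes, and their median log2 fold change was 5.53, against a median of 0.0188 over all tested genes. Their summed level was 19806 and 21325 CPM in the aSMC libraries and 291 to 635 CPM (median 441) in cortex. Cald1, the actin-binding protein caldesmon, was at 4912 and 4741 CPM in the aSMC libraries and 45 to 182 CPM (median 94.3) in cortex, a log2 fold change of 5.48 (SE 0.45). Mylk, the kinase that phosphorylates myosin light chain, was at 2372 and 2704 against 22.6 to 70.9 CPM (median 36.6), with a log2 fold change of 5.96 (SE 0.42). The regulatory myosin light chain Myl9 was at 872 and 999 against 6.04 to 34.1 CPM (median 25.4), the tropomyosin Tpm2 at 819.6 and 771 against 4.32 to 20.6 CPM (median 14.6), and Pln, the phospholamban that restrains the calcium pump of the sarcoplasmic reticulum, at 445 and 459.9 against 2.88 to 12.9 CPM (median 5.03). Tagln and Cnn1, the thin-filament proteins transgelin and calponin, were at 242 and 312 against 1.16 to 9.64 CPM (median 6.28) and 49.3 and 85.1 against 0.345 to 1.58 CPM (median 0.687). The smallest increase of the list was that of Myl6, the essential light chain that non-muscle cells also use, at 2.94, and 17 of the 18 calls held in every fit with 1 library left out. The exception, Actg2, did not pass without either aSMC library or without cortex replicate 2, 3 or 6, where its log2 fold change was 3.3 to 4.3. Mylk, Myl9, Tpm2, Pln, Tagln, Cnn1 and Myl6 were chosen for mention after their values had been seen, as were the members named below beyond those that the rule in the methods picks. Acta2 and Actg2 encode nearly identical actins, and reads that fit both may have been divided between them.

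Because these genes moved together, their promoters were searched for the CArG box, here CCNNNNNNGG with A or T at all 6 inner positions, in the RefSeq window of 250 bases before to 50 after each gene start (GRCm38.p6, matched by symbol). The pattern is its own reverse complement, so both strands were read. A strict box was held by 26 of 701 genes that were higher and had a window (3.71%), by 11 of 1136 that were lower (0.968%), by 166 of 10333 tested genes (1.61%) and by 488 of all 27025 genes with a window (1.81%). Of the 14 contractile genes with a window, 2 held one, Myl9 at -161 and Myl6 at -50 from the start. If 1 of the 6 inner bases may be G or C, a looser search that was added after the data were seen, the shares were 14.7% of the higher genes, 9.42% of the lower genes and 11.3% of all genes with a window. In that search Acta2 held a pair of boxes, at -84 and -34, and Myl9 a second one at -99. These are descriptions of letters in a window and not of binding. The sequences of 2 contractile genes follow, each from the window upstream of the start with 10 bases on either side of the outer boxes and the boxes in capitals.
Acta2 (chr19:34255388-34255467, minus strand): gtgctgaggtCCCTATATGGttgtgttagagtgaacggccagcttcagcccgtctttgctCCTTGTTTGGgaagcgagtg
Myl9 (chr2:156775293-156775384, plus strand): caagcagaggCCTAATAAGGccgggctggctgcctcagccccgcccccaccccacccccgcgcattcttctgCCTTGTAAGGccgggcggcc

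Strict boxes of other genes that were higher in aSMCs, shown because muscle and adhesion genes stood beside immediate early genes among them, were chosen after their values had been seen and are given 5′ to 3′ with the box in capitals. Vcl encodes vinculin of focal adhesions (log2 fold change 4.1), Cnn2 a calponin (4.19), Ldb3 a Z-disc protein (5.1), Myom1 myomesin (5.61) and Filip1l a protein that binds filamins (4.97), while Zfp36 and Egr2 are immediate early genes (4.21 and 3.77).
Asb2 (chr12:103356046-103356075, minus strand): agaaacatacCCATATATGGgctccatgtc
Vcl (chr14:20929161-20929190, plus strand): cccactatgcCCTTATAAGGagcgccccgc
Cnn2 (chr10:79988534-79988563, plus strand): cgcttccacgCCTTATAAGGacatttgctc
Ldb3 (chr14:34588697-34588726, minus strand): gggttacagtCCATTTATGGgcgcagcaag
Myom1 (chr17:71019448-71019477, plus strand): gccttcctggCCATAAAAGGctggctgtgg
Filip1l (chr16:57549170-57549199, plus strand): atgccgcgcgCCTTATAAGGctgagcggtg
Zfp36 (chr7:28379267-28379296, minus strand): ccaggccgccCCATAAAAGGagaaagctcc
Egr2 (chr10:67537787-67537816, plus strand): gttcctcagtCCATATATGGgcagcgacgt

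Around the contractile filaments, the genes that set the sensitivity of myosin to calcium were also higher. Of 13 genes of the myosin phosphatase and its regulators, 8 rose and 0 fell (median log2 fold change 2.24). Ppp1r12a, the myosin-binding subunit of the phosphatase, was at 769 and 774 CPM in the aSMC libraries and 44.1 to 92.3 CPM (median 62.2) in cortex, a log2 fold change of 3.57 (SE 0.33). Rock1, a kinase that inhibits the phosphatase, was at 592 and 639 against 56.3 to 169 CPM (median 78.1), with a log2 fold change of 2.58 (SE 0.4, adjusted p = 0.000288), and Cavin1, which shapes caveolae, at 486 and 474 against 9.48 to 31.6 CPM (median 21.6), with a log2 fold change of 4.49 (SE 0.4, adjusted p = 3.24e-06). The exchange factor Arhgef12 and Rhoa itself did not pass, at 0.64 and 0.56. Ppp1r14a, the inhibitor of the phosphatase known as CPI-17, was low, at 5.24 and 4.95 against 0 to 1.43 CPM (median 0.206), and did not pass (adjusted p = 0.0823).

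Calcium handling moved with them. Of 18 tested genes of calcium channels and stores, 9 rose and 2 fell (median log2 fold change 2.01). Atp2a2, the SERCA pump that refills the sarcoplasmic reticulum, was at 1057 and 1038 CPM in the aSMC libraries and 155 to 208 CPM (median 171) in cortex, with a log2 fold change of 2.54 (SE 0.28). Atp2b4, a plasma membrane calcium pump, was at 391 and 377 against 16.4 to 67.9 CPM (median 36.1), a log2 fold change of 3.29. Cacna1c, the pore of the L-type calcium channel through which arteriolar muscle takes up calcium, was at 149.8 and 174 against 5.77 to 22.9 CPM (median 11.7), a log2 fold change of 3.71, and Cacna1h, a T-type pore, at 54.7 and 58.7 against 1.92 to 17.7 CPM (median 5.19), a log2 fold change of 3.03. Ryr2, a calcium release channel of the stores, was at 46.1 and 64.1 against 10.3 to 16.5 CPM (median 12.6), a log2 fold change of 2.07. Ryr3, another release channel, was at 0.1 and 0.45 against 0 to 21.4 CPM (median 2.87), with a log2 fold change of -4.45 (SE 1.89, adjusted p = 0.127), and missed the threshold. The genes that fell were Cacnb3 (-3.0), a channel subunit abundant in brain, and Itpr2 (-1.48), an IP3 receptor, and with library totals 0 fell and 13 rose. The share that fell was close to the 11.4% of all tested genes that were lower. Without cortex replicate 1, 9 calls upward and 1 downward remained. In a fit of 11 libraries that added the 3 astrocyte samples of hGFAPCreER:Ai14 mice, 3 calls upward and 0 downward remained. Some calls in both directions were lost without aSMC replicate 7 or without replicate 8.

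Potassium channels of arterial muscle went both ways, with 4 of 13 higher and 3 lower, against 6.89% and 11.4% of all tested genes. Kcnmb1, the β1 subunit that smooth muscle couples to the calcium-activated BK channel, was at 132 and 148 CPM in the aSMC libraries and 0 to 7.84 CPM (median 1.46) in cortex, a log2 fold change of 5.85 (SE 0.86, adjusted p = 0.000177). Kcnma1, the pore of that channel, which neurons also use, did not pass, at 73.2 and 69.6 against 62.9 to 176 CPM (median 87.1), and the neuronal subunit Kcnmb4 fell, at 1.44 and 1.8 against 9.62 to 41.3 CPM (median 16.1), a log2 fold change of -3.54. Kcna5, a voltage-gated channel of vascular muscle, was at 18.2 and 20.5 against 0 to 3.02 CPM (median 0.981), a log2 fold change of 4.07, and the background channel Kcnk3 at 22.1 and 18.6 against 0 to 3.28 CPM (median 1.38), a log2 fold change of 3.82. The subunits of the ATP-sensitive channel, Kcnj8 and Abcc9, which are abundant in brain pericytes, were at 0.401 and 1.14 against 0 to 2.47 CPM (median 0.505) and 12.7 and 5.88 against 1.53 to 52.5 CPM (median 24.1) and did not pass. Kcna5 (4.21 and 4.03) did not pass without aSMC replicate 7 or without aSMC replicate 8. With 1 aSMC library left out, 1 call upward and 0 downward remained without replicate 7, and the same numbers, 1 and 0, without replicate 8. On library totals, 4 rose and 0 fell.

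Among the TRP, Piezo and chloride channels linked to the myogenic response, 4 of 14 tested genes rose and 1 fell. Of all tested genes 6.89% were higher and 11.4% lower. Ano1, the calcium-activated chloride channel that depolarizes vascular muscle, was at 159.5 and 148 CPM in the aSMC libraries and 2.03 to 15.4 CPM (median 4.08) in cortex, a log2 fold change of 4.75 (SE 0.55, adjusted p = 2.13e-05). Pkd1, a large polycystin that forms channels with Pkd2, was at 127 and 165 against 2.07 to 23.2 CPM (median 8.51), a log2 fold change of 3.83. The mechanosensitive channel Piezo1 was at 12.8 and 20.2 against 1.38 to 9.82 CPM (median 5.33), Trpc6 at 6.64 and 5.95 against 0.275 to 2.89 CPM (median 1.13) and Trpm4 at 18.4 and 10.7 against 0 to 9.0 CPM (median 1.33), and these 3 did not pass. On library totals 10 genes of the list rose and 0 fell. Without aSMC replicate 7 or 8, or cortex replicate 1 or 2, 2 calls upward and 0 downward remained.

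Genes of nitric oxide and cGMP signaling were higher as well, with 8 of 14 tested genes up and 1 down. The list holds enzymes that degrade cyclic nucleotides beside those that carry the signal. Of all tested genes 6.89% were higher and 11.4% lower. The summed level of the listed genes was 3054 and 3103 CPM in the aSMC libraries and 157 to 294 CPM (median 195) in cortex. Pde3a, a phosphodiesterase that cGMP inhibits, was at 1125 and 1159 CPM in the aSMC libraries and 4.66 to 62.1 CPM (median 20.4) in cortex, with a log2 fold change of 5.45 (SE 0.61, adjusted p = 1.69e-05). Pde5a, which degrades cGMP, was at 405 and 403 against 5.35 to 17.1 CPM (median 11.3), a log2 fold change of 5.19, and the cGMP-dependent kinase Prkg1 at 425 and 405 against 5.22 to 25 CPM (median 14.4), a log2 fold change of 4.85. The subunits of soluble guanylate cyclase, the receptor of nitric oxide, were also higher: Gucy1a1 at 407 and 412 against 11.2 to 51.4 CPM (median 23.6), a log2 fold change of 3.84, and Gucy1b1 at 149 and 139 against 4.06 to 73.8 CPM (median 7.8), a log2 fold change of 3.02. The nitric oxide synthases of neurons and endothelium, Nos1 and Nos3, were at 12.5 and 14.2 against 9.63 to 37.4 CPM (median 15.8) and 2.57 and 3.74 against 0 to 12.1 CPM (median 5.03) and did not pass. Pde1c fell, at 1.4 and 0.9 against 9.21 to 30.8 CPM (median 9.99), a log2 fold change of -3.76, but not without aSMC replicate 7 or 8 or on library totals, where 0 genes of the list fell.

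Receptors of vasoactive signals rose in part. Of 50 listed genes 36 were expressed enough to be tested, 9 rose and 4 fell, beside 6.89% of all tested genes that were higher and 11.4% that were lower, and the share that fell was close to the latter. The 9 that rose covered neuropeptide, endothelin, lipid, nucleotide, thrombin, serotonin, VIP and adrenergic signals. Npy1r, the receptor of the sympathetic cotransmitter neuropeptide Y, was at 250.1 and 250.2 CPM in the aSMC libraries and 0.691 to 11.1 CPM (median 4.36) in cortex, with a log2 fold change of 5.74 (SE 0.55, adjusted p = 5.07e-06). Ednra, the endothelin receptor that constricts vessels, was at 377 and 361 against 5.7 to 25 CPM (median 9.54), with a log2 fold change of 5.01 (SE 0.45, adjusted p = 3.51e-06). S1pr3, a receptor of sphingosine 1-phosphate, was at 133 and 173 against 0.863 to 22.6 CPM (median 4.44), a log2 fold change of 4.5, and F2r, the thrombin receptor PAR1, at 83.8 and 59.7 against 2.59 to 11.5 CPM (median 5.8), a log2 fold change of 3.35. The 2 aSMC libraries lay above all 6 cortex libraries for each of them.

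P2rx1, the ATP-gated channel of vascular muscle, was at 14.7 and 21.5 against 0 to 2.47 CPM (median 0), a log2 fold change of 5.06, and P2ry14, a receptor of UDP-glucose, at 34.7 and 35.7 against 0.863 to 11.8 CPM (median 1.55), a log2 fold change of 3.28. Htr1b, a serotonin receptor of cranial arteries and the target of triptans, was at 29.2 and 27.6 against 0 to 4.77 CPM (median 1.86), a log2 fold change of 3.72, and Vipr2, a receptor of vasoactive intestinal peptide, at 15.2 and 10.5 against 0 to 2.57 CPM (median 0.351), a log2 fold change of 4.03. Adra2b, an α2-adrenergic receptor, was at 2.47 and 1.59 against 0 to 0.173 CPM (median 0). It had 120 counts in aSMCs and 1 count in cortex, a ratio of 66.7 with an exact 95% interval of 11.7 to 2656 that covers counting error only. The 4 that fell are receptors that neurons, glia or endothelium use: Adora1, the adenosine A1 receptor, at 1.44 and 1.04 against 56.3 to 155 CPM (median 71.4), a log2 fold change of -6.2, Ednrb, the endothelin B receptor, at 4.01 and 4.78 against 8.13 to 77.5 CPM (median 49), a log2 fold change of -3.33, S1pr1 at 21.7 and 18.3 against 84.5 to 198 CPM (median 113), a log2 fold change of -2.67, and Ramp2, a partner of the calcitonin receptor-like receptor, at 1.67 and 3.18 against 2.89 to 47.3 CPM (median 17.5), a log2 fold change of -3.02. Calcrl, the receptor that RAMP proteins join for CGRP, did not pass, at 33 and 45 against 8.25 to 79.4 CPM (median 18.9). Adra2b (5.19 and 5.82), Ramp2 (-2.59 and -3.53), P2rx1 (5.34 and 4.77), P2ry14 (3.34 and 3.28), Ednrb (-3.14 and -3.41), Htr1b (3.76 and 3.82) and Vipr2 (3.84 and 4.34) did not pass without aSMC replicate 7 or without aSMC replicate 8. Ramp2 did not pass without cortex replicate 1 (-3.08), 4 (-2.56) or 6 (-2.99). Vipr2 did not pass without cortex replicate 1 (4.15). Ramp2 (-1.76), Ednrb (-2.42) and S1pr1 (-1.44) did not pass on library totals alone.

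RGS proteins switch off G proteins downstream of such receptors. Of 15 tested, 2 rose and 4 fell, beside 6.89% of all tested genes that were higher and 11.4% that were lower. Beside Rgs5, Rgs4 rose, at 1075 and 918 against 20.2 to 78.7 CPM (median 50), with a log2 fold change of 4.33 (SE 0.38, adjusted p = 3.24e-06). Rgs20, known from neurons and astrocytes, fell, at 0.367 and 0.588 against 8.71 to 76.1 CPM (median 38.3), a log2 fold change of -6.39. Rgs10 had 1 count in aSMCs against 216 in cortex, a cortex-to-aSMC ratio of 389 with an exact 95% interval of 69 to 15422.

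Of 20 tested genes that encode transcription factors of mural cells or members of the Notch pathway, 16 were higher and 0 lower (median log2 fold change 3.91). With cortex replicates 1 and 2 left out together, 12 of the 16 calls remained, and some were lost without aSMC replicate 7 or without replicate 8. Those fits are not given gene by gene for Heyl, Jag1, Foxc1, Tbx18 and Nr2f2. Notch3, the receptor mutated in the small-vessel disease CADASIL, was at 649 and 711 CPM in the aSMC libraries and 13.4 to 25.7 CPM (median 18.3) in cortex, with a log2 fold change of 5.17 (SE 0.33, adjusted p = 8.14e-07). Its target Heyl was at 549 and 546 against 1.55 to 46.4 CPM (median 15.8), a log2 fold change of 4.82, and its ligand Jag1 at 146 and 184 against 1.24 to 24.7 CPM (median 9.9), a log2 fold change of 3.81. Myocd, the myocardin that drives contractile genes, was at 129 and 182 against 0.173 to 3.34 CPM (median 1.41), with a log2 fold change of 6.48 (SE 0.62, adjusted p = 5.12e-06). Serum response factor itself, Srf, did not pass, at 28.2 and 34.3 against 4.12 to 20.3 CPM (median 8.48). Epas1, which encodes HIF-2α, was at 2624 and 2785 against 415 to 694 CPM (median 493), a log2 fold change of 2.35. The mural factors Foxc1, Tbx18 and Nr2f2 rose by 4.51, 4.49 and 4.12 on the log2 scale. Ebf2 was at 11.5 and 1.9 against 0 to 0.825 CPM (median 0.12) and thus differed between the aSMC libraries, and cortex replicate 5 held most of its cortex signal. Ebf2 (3.35) did not pass without aSMC replicate 7. Ebf2 also lost its call with cortex replicates 1 and 2 left out together (4.88).

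Pericyte markers rose in part. Of 12 tested, 7 rose and 0 fell, against 6.89% and 11.4% of all tested genes. The summed level was 11959 and 8889.8 CPM in the aSMC libraries and 328 to 1124 CPM (median 539) in cortex, of which Rgs5 made most. Among those that rose, Cspg4, the NG2 proteoglycan, was at 346 and 469 against 2.94 to 47.6 CPM (median 9.75), a log2 fold change of 4.85, Mcam at 368 and 374 against 0.518 to 20.6 CPM (median 6.52), a log2 fold change of 5.56, Cd248 at 89.1 and 99.2 against 0.518 to 4.95 CPM (median 3.11), a log2 fold change of 5.06, and Pdgfrb, the receptor of platelet-derived growth factor, at 261 and 232 against 3.71 to 25.3 CPM (median 14), a log2 fold change of 4.18. Of the 5 members that did not pass, 4 are given here. Kcnj8 and Abcc9 were as given above, Higd1b was at 8.85 and 5.95 against 0 to 5.35 CPM (median 0.428) and Atp13a5 at 21.6 and 11.1 against 4.2 to 14.8 CPM (median 10.4). Without either aSMC library 6 of the 7 calls remained, as Ndufa4l2, a mitochondrial gene of mural cells, did not pass, at 4.06 without replicate 7 and 4.61 without replicate 8.

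Genes of the basement membrane, the sheet of laminin and collagen IV in which aSMCs lie, were higher for 10 of 17 tested members and lower for 0 (summed level 2099.6 and 2169 CPM in the aSMC libraries and 172 to 438 CPM (median 309) in cortex). Lamc1, the laminin γ1 chain, was at 432 and 457 CPM in the aSMC libraries and 35.1 to 111 CPM (median 70.8) in cortex, with a log2 fold change of 2.69 (SE 0.39, adjusted p = 0.000155). Col4a2 was at 300.0 and 304 against 8.66 to 73.4 CPM (median 39.1), a log2 fold change of 2.91, and Col4a5, a collagen IV chain of a second network, at 39.9 and 48.9 against 0.173 to 3.74 CPM (median 1.32), with a log2 fold change of 4.77 (SE 0.82, adjusted p = 0.000681). Col18a1, the source of endostatin, was at 33.1 and 35.5 against 0.0954 to 4.32 CPM (median 1.53), a log2 fold change of 4.12. The laminin chains Lama5 and Lamb2 rose by 3.54 and 3.57 on the log2 scale, whereas Lama1, Lama3, Lamb1 and Nid2 had negative values, -0.59, -1.75, -0.78 and -1.31, and did not pass. Of the elastic fiber and artery wall genes, 5 of 15 rose. Bgn, the proteoglycan biglycan, was at 541 and 564 against 12.4 to 58.1 CPM (median 23.1), a log2 fold change of 4.37, Ltbp1, which stores latent TGF-β in the matrix, at 440.2 and 439 against 8.79 to 21.2 CPM (median 16.4), a log2 fold change of 4.79, and Eln, elastin, at 36.6 and 51.5 against 1.1 to 22.2 CPM (median 4.87), a log2 fold change of 2.49. The only gene of this list that fell was Tnc, tenascin C, with 1 count in aSMCs and 117 in cortex, a cortex-to-aSMC ratio of 211 (exact 95% interval 37.1 to 8386), and its call was lost without aSMC replicate 7 (-5.83) or 8 (-7.67), without cortex replicate 1 (-6.71), 2 (-6.25) or 6 (-6.42) and on library totals (-5.99).

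Integrins, which tie the cell to this matrix, rose in 7 of 14 genes and fell in 2. Of all tested genes 6.89% were higher and 11.4% lower, and the share of integrins that fell was close to the latter. With cortex replicates 1 and 2 left out together, 5 of the 7 calls upward remained, and some were lost without aSMC replicate 7 or without replicate 8. Itga1 and Itgb1, which together form a collagen receptor, were at 618 and 670.3 against 33.2 to 94.3 CPM (median 59.4), a log2 fold change of 3.39, and at 529 and 551 against 38.8 to 103 CPM (median 68.3), a log2 fold change of 2.99. Itga8 was at 147 and 172 against 0.173 to 6.19 CPM (median 1.44), with a log2 fold change of 6.5 (SE 0.67, adjusted p = 8.9e-06). The 2 that fell were Itgb8, at 5.14 and 3.05 against 23.5 to 94.6 CPM (median 61.8), a log2 fold change of -3.84, and Itga6, at 8.88 and 12.3 against 37.3 to 135 CPM (median 91.2), a log2 fold change of -3.0, of which 1 remained without aSMC replicate 7 and 1 on library totals.

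**Figure D3:**
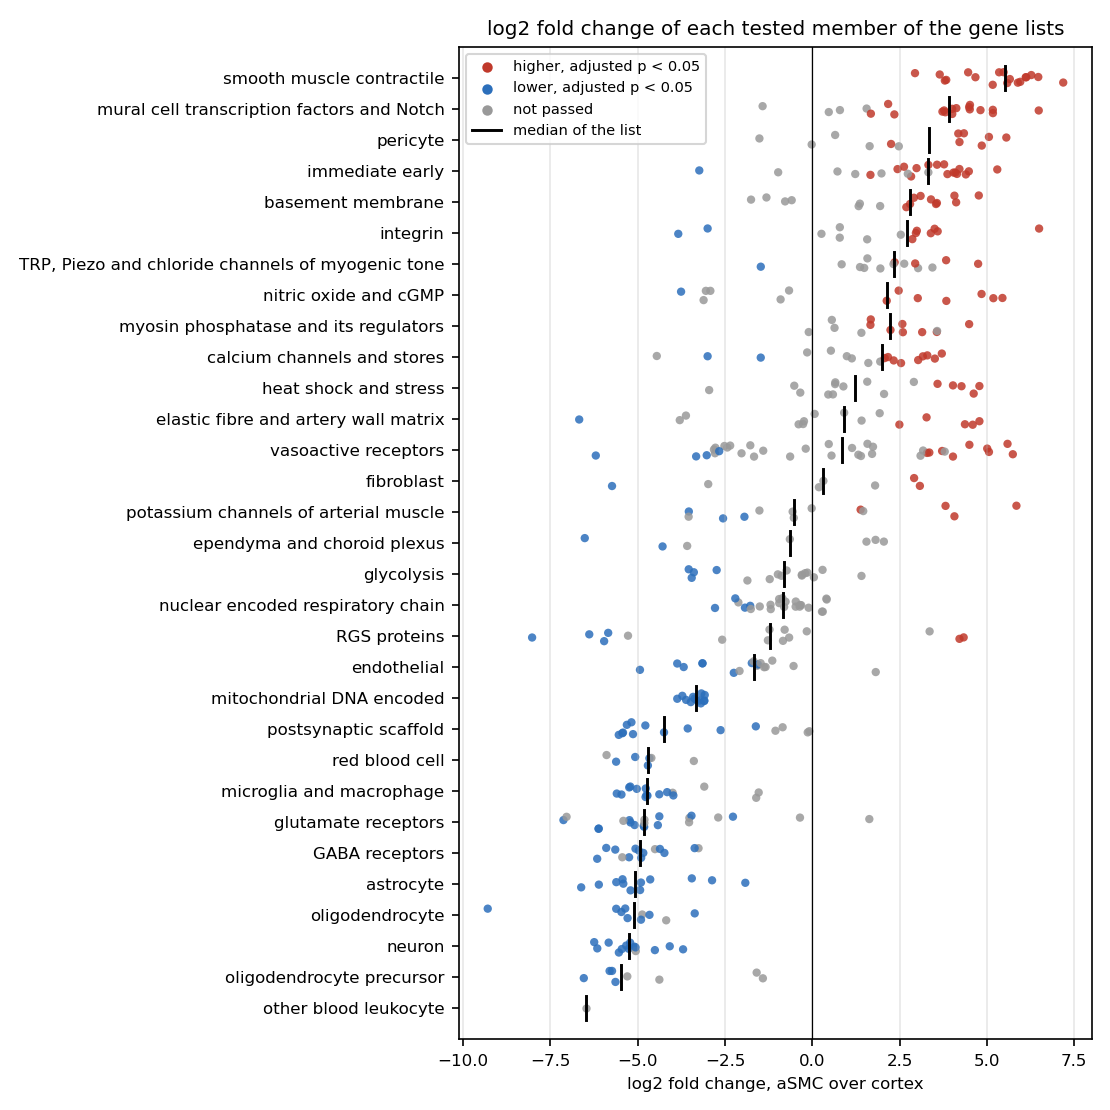
log2 fold change of aSMCs over cortex for each tested member of the 31 gene lists, which are ordered by their median (black bar). Red points were higher, blue points lower at an adjusted p under 0.05 and gray points did not pass; contractile genes lie at the top with a median of 5.53, and neuron, glial and synaptic lists lie toward the bottom with medians of -5.47 to -4.25; the lowest row, of other blood leukocytes, holds 1 tested gene. Fold changes of genes without counts in a group depend on the prior count.

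Neuronal RNA was scarce in the sorted cells. Of 14 neuron markers 13 were lower and 0 higher (median log2 fold change -5.24), and their summed level was 91.5 and 119.7 CPM in the aSMC libraries and 2998 to 5498 CPM (median 4669) in cortex, so that aSMCs held 2.37% of the cortex mean. Camk2a, a kinase of excitatory synapses, was at 64 and 87.6 CPM in the aSMC libraries and 2228 to 4192 CPM (median 3457) in cortex, a log2 fold change of -5.46 (SE 0.52, adjusted p = 5.12e-06). Snap25, of the vesicle fusion machinery, was at 12.5 and 15.3 against 340.0 to 798 CPM (median 575), a log2 fold change of -5.33. Slc17a7, the vesicular glutamate transporter VGLUT1, was at 0.668 and 1.14 against 43.2 to 104 CPM (median 65.5), a log2 fold change of -6.25, and Neurod2, a transcription factor of cortical neurons, at 0.2 and 0.208 against 4.39 to 24.7 CPM (median 15.6), a log2 fold change of -6.16. In bulk samples, fewer cells of a type and less RNA per cell cannot be told apart. None of the 14 markers was without counts in both aSMC libraries.

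Glutamate receptors were asked about in particular, because the study concerned contacts between glutamatergic axons and aSMCs. Of 21 tested genes 12 were lower in aSMCs than in cortex and 0 higher, against the 11.4% of all tested genes that were lower. Grin1 (chr2:25291181-25319187), the obligatory GluN1 subunit of NMDA receptors, was detected at a low level in both aSMC libraries. It was at 0.467 and 0.45 CPM in the aSMC libraries and 7.01 to 30.5 CPM (median 16.6) in cortex, from 27 counts in aSMCs and 594 in cortex, which put aSMCs at 2.64% of the cortex mean. The difference was a log2 fold change of -5.21 (SE 1.0, adjusted p = 0.00167). It passed with every library left out in turn and on library totals, and in the fit of all 17 libraries (-4.93, adjusted p = 0.0359), but not in the fit of 11 libraries that joined the 3 astrocyte samples to these 8 (-5.2, adjusted p = 0.0603). The neuron markers stood at 2.37% of their cortex level when summed, and Camk2a made most of that sum. Their median log2 fold change was -5.24, and single markers differed, with Slc17a7 at -6.25 and Snap25 at -5.33. Whether neuronal RNA accounts for the level of Grin1 was not tested.

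The other NMDA receptor subunits that fell were Grin2a, at 1.97 and 0.658 against 18.3 to 37.6 CPM (median 28.9), Grin2b, at 1.44 and 2.22 against 67.6 to 228 CPM (median 111), and Grin2c, given above. Grin2d, a subunit of interneurons and early development, had the opposite sign: it was at 7.58 and 5.95 against 0 to 5.35 CPM (median 2.04), with a log2 fold change of 1.63 (SE 1.14, adjusted p = 0.394), and missed the threshold. The AMPA receptor subunits Gria1, Gria2 and Gria3 were at 1.34 and 1.25 against 27.9 to 96.7 CPM (median 35.6), 0.801 and 1.49 against 17 to 55.3 CPM (median 31.9) and 0.968 and 1.18 against 19.4 to 60.6 CPM (median 43.7). Cortex replicate 6 was the highest for Gria1. Of the kainate receptors, Grik2 was at 2.77 and 2.01 against 9.64 to 54.8 CPM (median 20.1), Grik3 at 0.367 and 0.312 against 0.581 to 21.4 CPM (median 11.2) and Grik5 at 5.48 and 8.55 against 27.3 to 45.1 CPM (median 32.4). The metabotropic receptors Grm3, of astrocytes and neurons, and Grm5 were at 1.4 and 1.56 against 41.8 to 177 CPM (median 96.7) and 1.54 and 0.415 against 8.11 to 31.3 CPM (median 21.8). Grm8 had no counts in aSMCs and was at least 27.5-fold lower than in cortex by a floor of 3 counts over the group, and did not pass. Grik5 (-1.93 and -2.58), Grik2 (-3.65 and -3.2) and Grik3 (-4.86 and -4.65) did not pass without aSMC replicate 7 or without aSMC replicate 8. Grin2c (-6.4) did not pass without aSMC replicate 7. Grm5 (-3.69) did not pass without aSMC replicate 8. Grik3 did not pass without cortex replicate 1 (-4.8) or 2 (-4.74). Grik5 (-1.11), Grik2 (-1.91) and Grik3 (-3.78) did not pass on library totals alone.

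Receptors of GABA and the scaffolds that anchor receptors behind the synapse were low in the same libraries. Of 14 GABA receptor genes 11 fell and 0 rose, and 7 calls remained without aSMC replicate 7 and 7 without replicate 8. Gabra2 was at 3.81 and 6.92 against 88 to 275 CPM (median 138), a log2 fold change of -4.84, the GABA-B subunits Gabbr1 at 14.6 and 10.4 against 52.5 to 191 CPM (median 141), a log2 fold change of -3.37, and Gabbr2 at 0.568 and 1.49 against 21.2 to 96.3 CPM (median 63.1), a log2 fold change of -5.9, and Gabrg3 at 0.0668 and 0.208 against 4.2 to 24.4 CPM (median 9.84), a log2 fold change of -6.16. Gabrg3 (-5.53) did not pass without aSMC replicate 7. Of 15 scaffold genes 11 fell. Shank1 was at 20.3 and 31.6 against 616 to 1957 CPM (median 1204), with a log2 fold change of -5.54 (SE 0.62, adjusted p = 1.65e-05), and Dlgap1 at 3.77 and 5.57 against 140.5 to 260.0 CPM (median 202), a log2 fold change of -5.44. Dlg4, which encodes PSD-95, was at 13.9 and 17.3 against 134 to 218 CPM (median 186), a log2 fold change of -3.57. Dlg1 and Dlgap4, scaffold proteins that are also expressed outside the nervous system, were at 65.5 and 78.4 against 86.8 to 195 CPM (median 129.6) and 62.6 and 66.2 against 37.1 to 133 CPM (median 52.5) and did not pass, and the sign of both turned on library totals.

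Glial markers were lower too. All 12 of 12 astrocyte markers fell, with a summed level of 196 and 290.0 CPM in the aSMC libraries and 5008 to 22319 CPM (median 13883) in cortex. Slc1a2, the astrocytic glutamate transporter GLT-1, was at 112 and 244 CPM in the aSMC libraries and 4431 to 19728 CPM (median 12498) in cortex, a log2 fold change of -6.11 (SE 0.76, adjusted p = 3.86e-05), and Acsbg1, an acyl-CoA synthetase, at 0.668 and 0.658 against 18.9 to 126 CPM (median 61.4), a log2 fold change of -6.62. Aqp4, the water channel of the astrocyte endfeet that rest on arterioles, was at 27.3 and 3.6 against 28.7 to 163 CPM (median 138), a smaller log2 fold change of -2.87, with replicate 7 well above replicate 8. Of 10 oligodendrocyte markers 8 fell. Mbp, myelin basic protein, was at 128 and 177 against 2665 to 10482 CPM (median 6044), a log2 fold change of -5.36, and Mobp at 35.9 and 78.7 against 1514 to 3342 CPM (median 2073), a log2 fold change of -5.29. Cldn11, a claudin of myelin, had no counts in either aSMC library and was at least 133-fold lower than in cortex by the floor of 3 counts over the group. Of 8 markers of oligodendrocyte precursors 4 fell, among them Olig1 (-5.81) and Sox10 (-6.55), while Vcan (-1.42) and Gpr17 (-1.59) did not pass. Sox10 (-5.83) did not pass without aSMC replicate 7. Aqp4 (-2.0) did not pass without aSMC replicate 8. Aqp4 (-1.81) did not pass on library totals alone. Of the 12 astrocyte markers, 8 passed without aSMC replicate 7, 7 without replicate 8 and 7 on library totals.

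Markers of microglia and macrophages summed to 79.8 and 32.1 CPM in the aSMC libraries and 311 to 3289 CPM (median 1037) in cortex. A total of 12 of 16 fell and 0 rose. The lysosomal gene Ctss was at 11.8 and 4.12 against 44.8 to 339 CPM (median 95.9), a log2 fold change of -4.16, and C1qb, of the complement, at 2.0 and 0.727 against 10.9 to 171 CPM (median 40.4), a log2 fold change of -5.6. Aif1, which encodes IBA1, was at 0.568 and 0.104 against 1.37 to 74.9 CPM (median 3.89), a log2 fold change of -5.47, with cortex replicate 4 at 74.9 CPM and the other 5 at 1.37 to 5.36. The calls of this list depended on both aSMC libraries, as 6 remained without replicate 7 and 0 without replicate 8. Aif1 (-7.0 and -4.71) did not pass without aSMC replicate 7 or without aSMC replicate 8. Ctss (-3.56) and C1qb (-5.02) did not pass without aSMC replicate 8. Aif1 did not pass without cortex replicate 4 (-3.36) or 5 (-5.64). Aif1 (-3.93) did not pass on library totals alone.

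Endothelial markers, the nearest neighbors of aSMCs in the vessel wall, had values between those of mural and neuronal markers. Of 17 tested, 8 were lower and 0 higher (median log2 fold change -1.68), with a summed level of 441 and 430.2 CPM in the aSMC libraries and 765 to 2175 CPM (median 1274) in cortex. Pecam1, which encodes the endothelial adhesion protein CD31, was at 105 and 91.4 CPM in the aSMC libraries and 81.1 to 334 CPM (median 112) in cortex, and its difference, a log2 fold change of -0.54 (SE 0.5, adjusted p = 0.555), missed the threshold and was 0.7 on library totals. Slc2a1, which carries glucose across the blood-brain barrier, was at 96.2 and 95.6 against 110.1 to 412 CPM (median 318), a log2 fold change of -1.56. Kdr, the VEGF receptor of endothelium, was at 2.9 and 2.73 against 21.4 to 62.3 CPM (median 41.1), a log2 fold change of -3.87, and Mfsd2a, a lipid transporter of the barrier, at 0.801 and 0.45 against 12.4 to 25.3 CPM (median 19.3), a log2 fold change of -4.94. Cldn5, of the endothelial tight junction, was at 3.41 and 1.83 against 9.9 to 38.2 CPM (median 23.5), a log2 fold change of -3.15, whereas Esam was at 35.5 and 33.2 against 2.47 to 15.4 CPM (median 10.3) and did not pass. On library totals 3 of these genes fell and 1 rose, and 3 and 4 calls downward remained without aSMC replicate 7 and without replicate 8. Slc2a1 (-1.51 and -1.51) did not pass without aSMC replicate 7 or without aSMC replicate 8. Slc2a1 did not pass without cortex replicate 1 (-1.5) or 6 (-1.42). Slc2a1 (-0.39) did not pass on library totals alone. Whether endothelial RNA in the sort accounts for the level of these markers was not tested.

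Fibroblast markers gave no single direction. Of 10 listed genes 7 were tested, 2 rose and 1 fell. The collagens Col1a2 and Col3a1 were at 84.3 and 135 against 10.1 to 16.1 CPM (median 12.7), a log2 fold change of 3.08, and at 34.2 and 33.7 against 1.65 to 7.92 CPM (median 4.32), a log2 fold change of 2.92. Pdgfra, a receptor of fibroblasts and of oligodendrocyte precursors, was at 0.267 and 0.277 against 4.4 to 29.9 CPM (median 14.2), a log2 fold change of -5.74. Col1a1 and Dcn, decorin, were at 1.24 and 3.29 against 0.825 to 3.28 CPM (median 1.36) and 0.501 and 0.969 against 2.73 to 10.7 CPM (median 5.62) and did not pass. Red cell genes fell in 4 of 7: the globins Hbb-bs and Hba-a2 were at 40.5 and 6.96 against 107 to 4142 CPM (median 367), a log2 fold change of -5.62, and at 21.8 and 3.05 against 48.5 to 734 CPM (median 191), a log2 fold change of -4.67, and 0 of the 4 calls remained without aSMC replicate 8. Hba-a1 and Hba-a2 are near-identical copies whose reads cannot be assigned with certainty. Slc4a1, the anion exchanger of red cells, was at 0.2 and 0.0346 against 0 to 30.7 CPM (median 1.99) and did not pass. Of the 10 leukocyte markers 1 could be tested, Cd4, without counts in aSMCs and at 0 to 3.02 CPM in cortex, and it did not pass. Among genes of ependyma and choroid plexus, 2 of 7 fell, against 11.4% of all tested genes. They were Ttr, at 14.4 and 0.0346 against 17.6 to 2115 CPM (median 333), and Enpp2, at 25 and 5.85 against 58.8 to 745 CPM (median 296). Rarres2, at 10.4 and 7.86 against 0 to 12.1 CPM (median 1.58), did not pass. Col3a1 (2.98 and 2.98) did not pass without aSMC replicate 7 or without aSMC replicate 8. Hbb-bs (-4.79), Hba-a2 (-3.81), Enpp2 (-3.54) and Ttr (-5.46) did not pass without aSMC replicate 8.

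**Figure D4:**
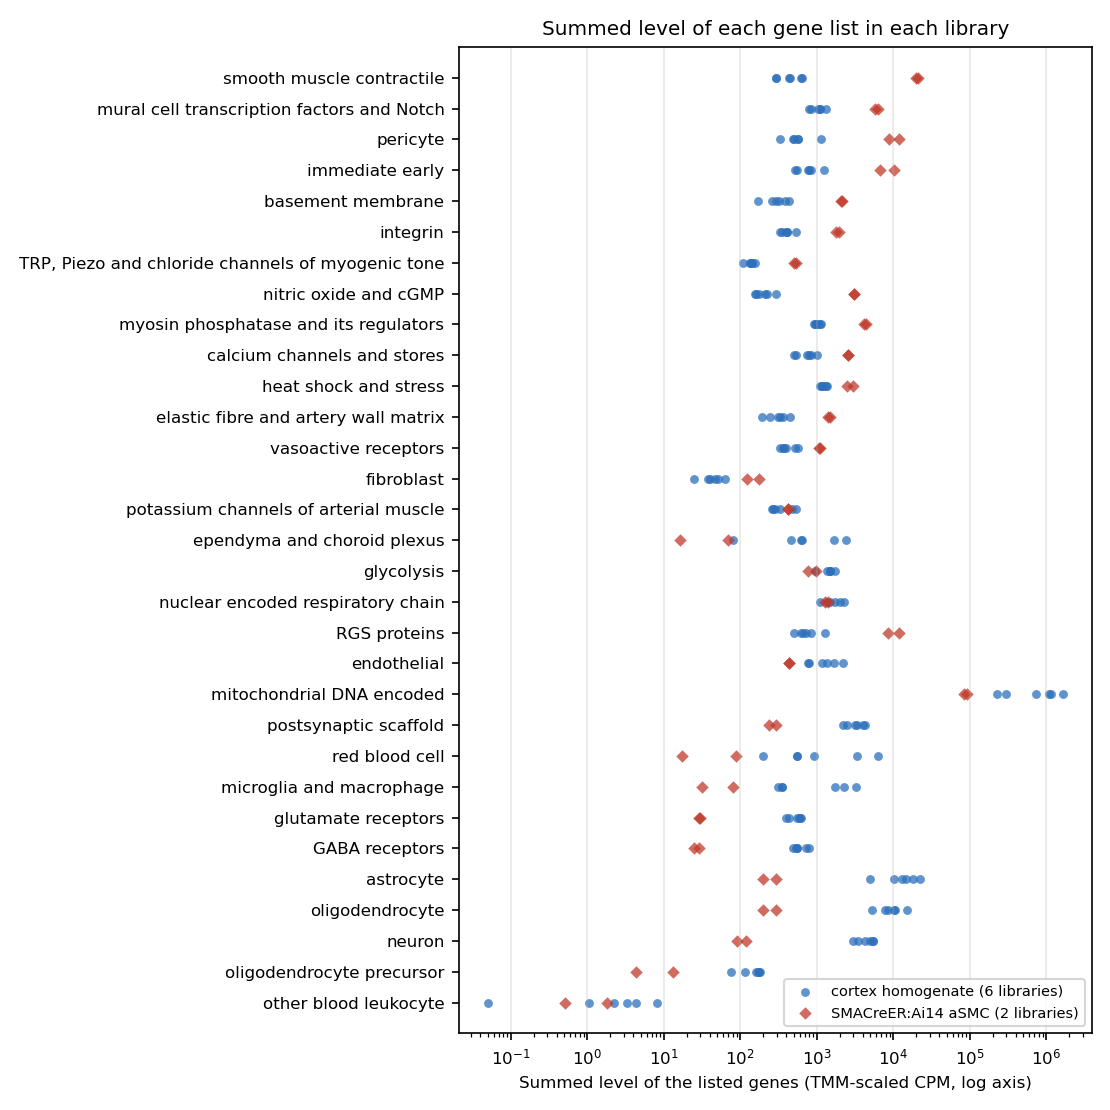
Summed level of the members of each gene list in every library on a log axis, in TMM-scaled CPM, with the lists ordered by the median log2 fold change of their members. Red diamonds are the 2 aSMC libraries and blue circles the 6 cortex libraries; contractile genes lie at 19806 and 21325 CPM in aSMCs and at most 635 in cortex, neuron markers the other way round, and a sum of 0 is drawn at 0.05.

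Outside the muscle program, immediate early genes, which cells switch on within minutes of a stimulus, were high in the sorted cells. Of 23 tested, 16 rose and 1 fell (median log2 fold change 3.32), and the summed level was 6698 and 10226 CPM in the aSMC libraries and 525 to 1244 CPM (median 778) in cortex. Egr1, a zinc finger factor, was at 1472 and 2393 CPM in the aSMC libraries and 57.1 to 195 CPM (median 105) in cortex, with a log2 fold change of 4.09 (SE 0.39, adjusted p = 4.83e-06). Zfp36, which destabilizes mRNAs of cytokines, was at 1235 and 2040.2 against 27.8 to 183 CPM (median 81.5), a log2 fold change of 4.21. The AP-1 members Fosb and Junb were at 552 and 911 against 5.81 to 32.2 CPM (median 19.6), with a log2 fold change of 5.3 (SE 0.45, adjusted p = 2.47e-06), and at 48.7 and 61.5 against 0.518 to 4.35 CPM (median 2.11), a log2 fold change of 4.48, and Fos was at 435 and 611 against 4.14 to 69 CPM (median 30.2), a log2 fold change of 4.04. The gene that fell was Arc, which neurons use at synapses, at 11.3 and 5.57 against 36.1 to 122 CPM (median 75.1), a log2 fold change of -3.24, and it missed the threshold on library totals (-1.94). The sum was higher in aSMC replicate 8 than in replicate 7, the reverse of Rgs5. Without aSMC replicate 7 or replicate 8, 13 and 12 genes of the list rose.

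The other sorted samples of the series are aSMCs of SMACreER:Ai47 mice and 3 astrocyte samples of hGFAPCreER:Ai14 mice, which carry the same reporter. The aSMCs of SMACreER:Ai14 mice and these astrocytes were compared directly in a fit of 11 libraries (aSMCs, cortex and astrocytes). In that fit 11.7% of 14270 tested genes were higher and 3.9% lower in aSMCs than in astrocytes. Of the immediate early genes 10 were higher and 0 lower in aSMCs, and their sums were 7872 and 12125 CPM in aSMCs against 388 to 2248 in astrocytes. Fos was at 511 and 724 CPM in aSMCs and 7.95 to 58.6 in astrocytes on that scale, and Klf4, a Krüppel-like factor of vascular muscle, at 108 and 184 and 0.126 to 4.22. Contractile genes were higher in aSMCs for 14 and lower for 0 of 18. The samples are called astrocytes here by their label. Their astrocyte markers summed to 1765 to 2729 CPM, against 5847 to 26549 in cortex. Genes of ependyma and choroid plexus summed to 1179 to 4535 CPM in them, against 92.3 to 2882 in cortex. The astrocyte and the aSMC samples differ in cell type and in Cre driver, and their sort conditions are not stated.

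Genes of heat shock and stress rose in 5 of 16 and fell in 0, and 10 rose on library totals. Hspa1a, an inducible HSP70, was at 747 and 522 CPM in the aSMC libraries and 5.35 to 44.5 CPM (median 23.8) in cortex, with a log2 fold change of 4.62 (SE 0.5, adjusted p = 1.19e-05), and Gadd45b, a gene of the DNA damage response, at 10.6 and 18.9 against 0 to 1.24 CPM (median 0.461), a log2 fold change of 4.79. Hspa1a and its near-identical copy Hspa1b (4.27) may share reads. Hspa8, the constitutive member, was at 523 and 519.8 against 200.0 to 361 CPM (median 292) and did not pass. Against astrocytes 2 genes of the list were higher, Hspa1a and Hspa1b, and 1 was lower, Hsp90aa1, at 402 and 317 CPM in aSMCs and 1207 to 4678 in astrocytes, all 3 named after their values had been seen. Gadd45b (4.39) did not pass without aSMC replicate 8.

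No listed gene of energy metabolism passed upward with TMM scaling. All 13 of 13 genes of the mitochondrial DNA fell, with a summed level of 83457 and 91175 CPM in the aSMC libraries and 229334 to 1672680 CPM (median 914150) in cortex, where the CPM scale is that of TMM so that a sum is not a share of the library. mt-Co1, of cytochrome oxidase, was at 29810.3 and 31055 against 72613 to 587065 CPM (median 323271), a log2 fold change of -3.32. mt-Nd1, mt-Nd4 and mt-Nd6, of complex I, had log2 fold changes of -3.72, -3.18 and -3.87. Without aSMC replicate 7 or 8, 2 and 3 of the 13 calls remained, and mt-Co1 (-3.24 and -3.31), mt-Nd1 (-3.57 and -3.78), mt-Nd4 (-3.03 and -3.23) and mt-Nd6 (-3.81 and -3.83) were among those that did not pass. Of 24 nuclear genes of the respiratory chain 4 fell, among them Cox4i1 (-2.79) and Ndufb9 (-2.21), and 0 fell on library totals. That share was close to the 11.4% of all tested genes that were lower. Atp5b and Atp5a1, of the ATP synthase, were at 641 and 738 against 403 to 741 CPM (median 559) and 209 and 221 against 74.9 to 224 CPM (median 162) and did not pass. Without aSMC replicate 7 or 8 or cortex replicate 1, 1, 2 and 2 of these calls remained. Of 16 glycolytic genes 4 fell, Eno2, the neuronal enolase, at 3.64 and 4.5 against 36 to 58.8 CPM (median 42.2), Hk2, a hexokinase, at 0.968 and 1.04 against 4.32 to 25.8 CPM (median 9.3), Pfkm and Ldhb. On library totals 1 fell and 1 rose, and without either aSMC library 2 calls remained. Gapdh and Aldoa were at 316 and 479.9 against 345 to 648 CPM (median 495) and 59.9 and 79.3 against 73.3 to 151 CPM (median 120.0), did not pass, and took the opposite sign on library totals. Hk2 (-3.44 and -3.55) did not pass without aSMC replicate 7 or without aSMC replicate 8. Ndufb9 (-2.05) did not pass without aSMC replicate 7. Cox4i1 (-1.8), Ndufb9 (-1.13) and Hk2 (-2.03) did not pass on library totals alone.

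The 2 aSMC libraries were close to each other. Over genes at 10 CPM or more in either library the median absolute log2 ratio between them was 0.252, against 0.283 to 1.0 in the 15 pairs of cortex libraries. Genes that differed over 4-fold made up 0.755% of these genes (45 genes) and 0.619% to 23.7% in cortex pairs. Their raw counts gave a chi-square of 28.8 per degree of freedom, below the 29.3 to 227 of the cortex pairs. The pairs were not matched for depth: 3 counts came to 0.100 and 0.104 CPM in aSMCs and 0.286 to 1.24 CPM in cortex. The 2 aSMC libraries were kept as 2 samples because the labels give them as such, and the counts do not show whether they came from separate animals. The genes that differed most, in aSMC replicate 7 and then 8, were Ttr (14.4 and 0.0346 CPM), the transthyretin of choroid plexus, Slc22a3 (0.0668 and 25.7 CPM), a cation transporter, Gdpd3 (0.568 and 44 CPM), a phosphodiesterase of lysophospholipids, and the predicted genes Gm13394 (28.3 and 0 CPM) and Gm10359 (0 and 14.3 CPM). Slc22a3 and Gdpd3 came from replicate 8 alone or nearly so, did not pass, and turned negative without it, but passed on library totals. Markers of other cells differed between the libraries in both directions. Replicate 7 was higher for Hbb-bs at 40.5 and 6.96 CPM, Aqp4 at 27.3 and 3.6 CPM and Enpp2 at 25 and 5.85 CPM, and for the sums of red cell (88.6 and 17.3 CPM), ependyma and choroid plexus (68.7 and 16.4 CPM) and microglia markers. Replicate 8 was higher for the sums of neuron, astrocyte, oligodendrocyte (196 and 292 CPM), oligodendrocyte precursor (4.31 and 13.2 CPM) and fibroblast markers (124 and 178 CPM).

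**Figure D5:**
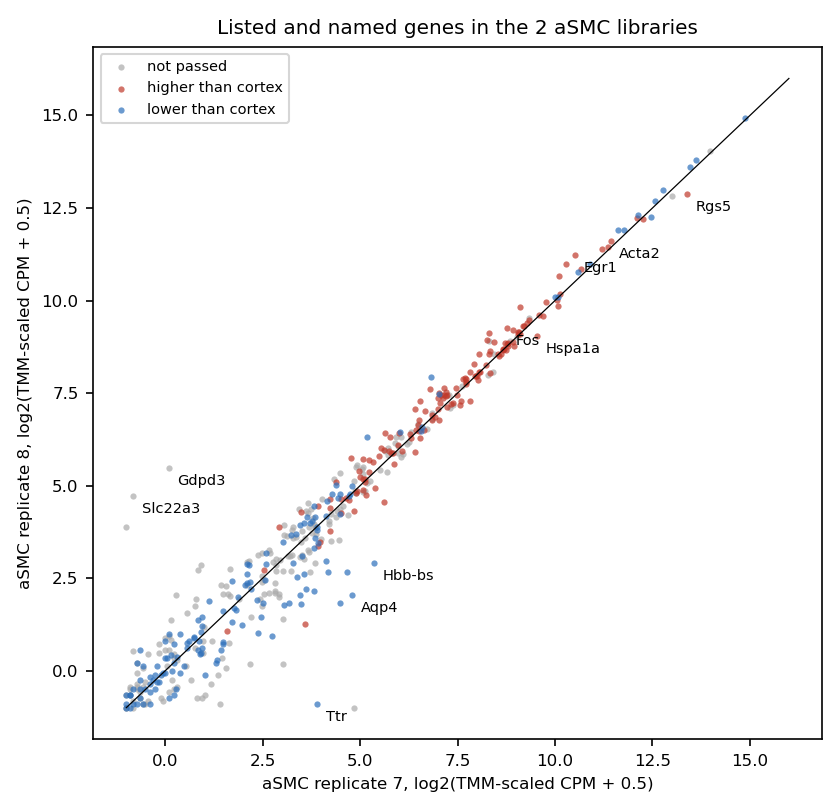
Level of the listed and named genes in aSMC replicate 7 (horizontal) and replicate 8 (vertical), as log2(TMM-scaled CPM + 0.5), with the line of equality. Red points were higher and blue points lower than cortex; most points lie near the line, and Ttr, Hbb-bs, Aqp4, Slc22a3 and Gdpd3 lie away from it.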

How the data were processed

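Bulk RNA-seq of 8 samples was analysed, 2 of tdTomato-positive aSMCs sorted from SMACreER:Ai14 mice and 6 of cortex homogenate labelled WT, and 3 astrocyte samples of hGFAPCreER:Ai14 mice served as a further sorted cell type. As deposited by the authors, the table gives unnormalized read counts for 21640 gene symbols. Per the labels, RNA was taken with the RNeasy Plus Mini kit and libraries were made with the NuGEN Ovation systems, and the submitters' processing notes list Salmon 1.4.0 after Trim Galore 0.6.7, with MultiQC 1.13 for quality control and GRCm38 as the build, whereas the methods of the study name TopHat and htseq-count. The amplification kits, the strand setting and the annotation can change levels and the assignment of overlapping genes, and were not examined. All 17 columns were mapped to samples by name. Every row named a gene.

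Genes were kept by filterByExpr of edgeR 4.0.16 (R 4.3.3) with a minimum count of 10, which left 13571 of 21640. Libraries were scaled by TMM, and groups were compared by glmQLFit and glmQLFTest over the 8 libraries, with a Benjamini-Hochberg adjusted p under 0.05 as the threshold. The 6 residual degrees of freedom came mostly from cortex. An exact two-sided rank-sum test of 2 against 6 samples has 28 assignments and cannot go below p = 0.0714, so none was used. The standard error is the size of the log2 fold change divided by the root of F. The scripts were tested on simulated counts. Levels are means of TMM-scaled CPM per library, and for a gene without counts in a group the bound uses a floor of 3 counts over the group. At this depth 3 counts came to 0.100 and 0.104 CPM in aSMC replicates 7 and 8.

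The rule named the 3 markers, the 12 largest changes in each direction (adjusted p under 0.05, at least 10 CPM in the higher group, no overlap of the groups, no predicted gene), the 2 members of each of 31 gene lists with the highest level in aSMCs and the 2 with the largest change, the receptors of the vasoactive and glutamate lists that passed together with Grin1, and the 5 genes that differed most between the aSMC libraries. Some genes that the rule names are not reported here. The comparison, its lists and this rule were chosen with earlier results of these data known. Coordinates are of GRCm38 from GENCODE M21, matched by symbol for 97.4% of genes, and promoter windows are from RefSeq. DESeq2 1.42.0 was an alternative, beside other scalings, filters, sets of libraries and each library left out. Tables and figures were made in Python 3.11.15 with pandas 2.3.3 and matplotlib 3.10.9.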

Additional observations from a re-analysis of the deposited data

Results flagged for a closer look

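Each of 186 levels was examined for 1 library that stood far from the others of the cortex group, by Dixon's ratio on log2(CPM + 0.5), and 8 stood out. Chance gives about 1 in 20 such groups, and 8 of 186 is no more than that share. The 2 aSMC libraries are too few for this check, and no cause was tested for any of the 8.

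Cortex replicate 4 was high for Mrgprh, at 0.871 CPM with the other 5 at 0 to 0.0954, and for Aif1, at 74.9 CPM with the others at 1.37 to 5.36. It was low for Grin2c, at 0.871 CPM with the others at 9.89 to 26.0. In that library 0.871 CPM is the level of 3 counts. Cortex replicate 3 was high for Pecam1, at 334 CPM with the others at 81.1 to 126, and for Adra2b, at 0.173 CPM from its 1 count with the others at 0. It was low for Hspa1a, at 5.35 CPM with the others at 20.9 to 44.5. Cortex replicate 5 was high for Ebf2, at 0.825 CPM with the others at 0 to 0.173, which is under the 1.24 CPM of 3 counts in that library. Cortex replicate 6 was high for Gria1, at 96.7 CPM with the others at 27.9 to 42.1. Without cortex replicate 4, Mrgprh and Grin2c still passed, whereas Aif1 had a log2 fold change of -3.36 and did not pass.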

How the results depend on the processing

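No paired analysis was possible because the groups compared share no replicate number (7 and 8 against 1 to 6). The numbers of genes higher and lower, 935 and 1541 in the fit reported, were 2177 and 625 on library totals, 1003 and 2333 by DESeq2, 593 and 1164 against a fold of 1 on the log2 scale, 593 and 298 with all 17 libraries and 349 and 349 with 11 libraries. Leaving out 1 library at a time gave 444 to 1034 genes higher and 653 to 1621 lower. DESeq2's size factors, either change of the filter, thinning of the aSMC libraries, removal of the mitochondrial genes and leaving out cortex replicates 1 and 2 moved neither number by over 1.5 times. The causes were not tested. The fits with 17 and 11 libraries estimate the spread from other cell types too. Of 155 genes named by the rule, 134 passed, and 69 kept their call in all 19 alternatives. The 17-library fit lost 44 of the calls and the 11-library fit 51, that of Grin1 among the latter. No called gene reversed. Of genes that did not pass, Pecam1 (0.70), Dlg1 (0.46), Dlgap4 (1.29), Gapdh (0.85) and Aldoa (0.33) turned positive on library totals, and Dlgap4 with 17 libraries (0.22). With 1 library left out, Dlgap4 ranged from -0.29 to 0.14, Gapdh from -0.59 to 0.028, Slc22a3 from -3.49 to 4.84 and Gdpd3 from -2.11 to 4.76. Depth limits low genes most: Adra2b, Tnc, Rgs10 and Cnih3 rest on 1 to 3 counts in a group.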
